A study of Rattus norvegicus with 8 samples.

Results

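Axon guidance ligands and receptors were followed through the development of the rat pineal gland, the small gland at the roof of the brain that makes melatonin at night. Members were the deposited rows whose gene symbol belongs to the semaphorins (Sema3 to Sema7), plexins, neuropilins, ephrins, Eph receptors, Slits, Robo receptors, netrins or netrin receptors (Dcc and Unc5). This gave 60 of 16932 RefSeq transcripts, from 59 of 16462 gene symbols, of which 32 encode ligands and 28 encode receptors. Epha5 is the only gene with 2 rows. Not every gene of these families has a member row, and sums and shares of a family cover its member rows only.

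Total RNA came from pineal glands of Sprague-Dawley rats kept in 14 h of light and 10 h of dark. Glands were taken at embryonic day 21 (E21) and at postnatal days 5, 20 and 40 (P5, P20, P40), each at mid-day (zeitgeber time 7 h) and at mid-night (zeitgeber time 19 h). Each age and time is 1 library from pooled animals: 13 and 15 animals for mid-day and mid-night at E21, 17 and 19 for P5, 13 and 10 for P20, and 3 and 3 for P40. No allele or drug separates the groups, and sex is not given in the labels used here. The study asked how the pineal transcriptome changes over these ages and which transcripts differ between day and night. Values are FPKM, fragments mapped to a transcript, scaled by its length and by the depth of the library, so levels are per length. With 1 pool for each age and time, the spread in every test comes from the differences between the day and night libraries across ages, and it holds no separate measure of variation among animals.

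Guidance cues are proteins that steer growing axons and migrating cells toward or away from a source. Secreted semaphorins act through neuropilin and plexin complexes and most membrane semaphorins through plexins; ephrins on one cell engage Eph receptors on its neighbour, often with signals into both cells; Slits act through Robo receptors and netrins through Dcc and Unc5 proteins. Several of these pairs also shape blood vessels and tissue boundaries. The pineal gland receives sympathetic axons from the superior cervical ganglia, whose release of noradrenaline drives its nightly cyclic AMP signal.

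The libraries carried the transcripts that define pinealocytes. Summed FPKM of 10 pineal markers lay at 1006 to 1041 at E21 and 4627 to 5763 at P40, with 6 of the 10 higher at P40 than at E21. Of all transcripts tested, 16.1% were higher at P40. Tph1, the first enzyme of serotonin synthesis, lay between 331 and 2756 FPKM in every library, and Aanat, the enzyme that sets the nightly melatonin rhythm, was at 571.7 FPKM at P20 mid-night against 6.21 at P20 mid-day. Cell-type markers moved too. The P5 mid-night library stood apart in choroid plexus markers, with a sum of 17794 against 3035 in the P5 mid-day library and 531 to 1384 at the other ages. Depth, read from the smallest FPKM steps of olfactory receptor transcripts and set relative to the deepest library, ran from 0.423 at P20 mid-day to 1 at P40 mid-night. That estimate is rough, since only 13 (E21 mid-day) to 26 (P5 mid-day) olfactory transcripts lay above 0 in a library. By it, the value of 1 fragment on a transcript spanning 1 kb was 0.0271 to 0.0640 FPKM, so values under about 0.1 FPKM rest on few fragments.

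The promoters of 4 members that carry the results below are shown because they represent the largest fall with age on the log2 scale tested, the largest early rise and the lowest p-values for a night effect. They are RefSeq sequences of the GRCr8 assembly, from 250 bases before to 50 bases after the annotated start, read 5′ to 3′ along the gene's strand. Capitals mark matches to the motifs named afterwards. Sema6d lies at chr3:132337106-132337405 on the plus strand, Sema7a at chr8:67244068-67244367 on the plus strand, Robo2 at chr11:26526363-26526662 on the minus strand, and Efna5 at chr9:110042138-110042437 on the minus strand.
Sema6d: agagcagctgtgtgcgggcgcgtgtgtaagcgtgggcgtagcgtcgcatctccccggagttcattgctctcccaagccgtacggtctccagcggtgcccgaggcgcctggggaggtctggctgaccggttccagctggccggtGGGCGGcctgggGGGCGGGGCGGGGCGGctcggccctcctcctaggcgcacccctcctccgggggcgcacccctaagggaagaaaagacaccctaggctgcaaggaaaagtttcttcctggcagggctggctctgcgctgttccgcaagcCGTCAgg
Sema7a: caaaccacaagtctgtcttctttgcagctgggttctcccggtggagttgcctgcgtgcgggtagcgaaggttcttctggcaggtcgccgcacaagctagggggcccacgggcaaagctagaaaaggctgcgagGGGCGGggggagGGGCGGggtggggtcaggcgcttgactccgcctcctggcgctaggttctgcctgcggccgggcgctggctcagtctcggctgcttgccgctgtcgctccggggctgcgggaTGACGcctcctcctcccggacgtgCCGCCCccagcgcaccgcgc
Robo2: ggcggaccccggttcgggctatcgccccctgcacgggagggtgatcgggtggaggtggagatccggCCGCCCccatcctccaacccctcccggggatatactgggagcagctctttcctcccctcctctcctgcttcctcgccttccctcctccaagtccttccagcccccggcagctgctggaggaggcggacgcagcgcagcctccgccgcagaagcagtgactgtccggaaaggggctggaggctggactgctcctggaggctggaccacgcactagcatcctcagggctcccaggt
Efna5: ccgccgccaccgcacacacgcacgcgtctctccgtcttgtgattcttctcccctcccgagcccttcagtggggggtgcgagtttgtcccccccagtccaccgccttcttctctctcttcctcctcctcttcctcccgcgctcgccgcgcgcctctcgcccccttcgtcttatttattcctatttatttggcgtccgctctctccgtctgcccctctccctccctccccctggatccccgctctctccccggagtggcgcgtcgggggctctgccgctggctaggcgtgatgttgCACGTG

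The Sema6d window held 4 GC boxes (GGGCGG, the site of Sp1-type factors) and 1 core of the cyclic AMP response element (TGACG, here on the minus strand). The Sema7a window held 3 GC boxes, 1 of them on the minus strand, and 1 such core on the plus strand. In the Robo2 window the only match was a GC box on the minus strand, and in Efna5 it was an E-box (CACGTG). Promoters were found for 45 of the 59 member genes, with 46 windows in all because Robo1 has 2. Across these, the GC box was in 23 of 46 against 33.1% of 33469 promoters of the same length, and the cyclic AMP core in 9 of 46 against 21.2%. The full element TGACGTCA, which contains that core, was in 1 of 46 against 1.83%, the E-box in 4 against 6.42%, the Crx and Otx2 homeobox motif TAATCC in 1 against 7.17%, and the D-box TTATGTAA in 0 against 0.893%. Both strands were searched. Median GC content was 62.2% in member windows and 51.7% in the whole set, with medians of 18 and 7 CG dinucleotides. These matches describe letters in the windows and not bound sites.

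Guidance transcripts spanned a wide range of levels. The 3 highest by mean over the 8 libraries were Plxnb2 (36.5 FPKM), Efna5 (36.4) and Sema7a (27.9), followed by Sema3a (16.9), Slit2 (15.5), Sema3c (14.3), Robo2 (9.43), Sema6d (8.07), Epha4 (6.82), Sema3f (6.72), Efnb1 (6.54) and Ephb1 (5.10). At least 10 FPKM was reached by 11 members in at least 1 library and by 5 members in every library. At the other end, 14 members stayed under 1 FPKM in every library, among them Slit1, Robo3, Robo4 and Unc5d, and none was at 0 in every library. Members at 1 FPKM or more numbered 39 and 41 at E21 (mid-day, then mid-night), 38 and 39 (P5), 31 and 28 (P20) and 27 and 28 (P40). Over the same libraries, the count of all transcripts at 1 FPKM ran from 8598 at P20 mid-night to 9533 at P5 mid-night. The median over the 60 members was 2.70 and 2.53 FPKM in the E21 libraries and 0.933 and 0.924 in those of P40.

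**Figure D1:**
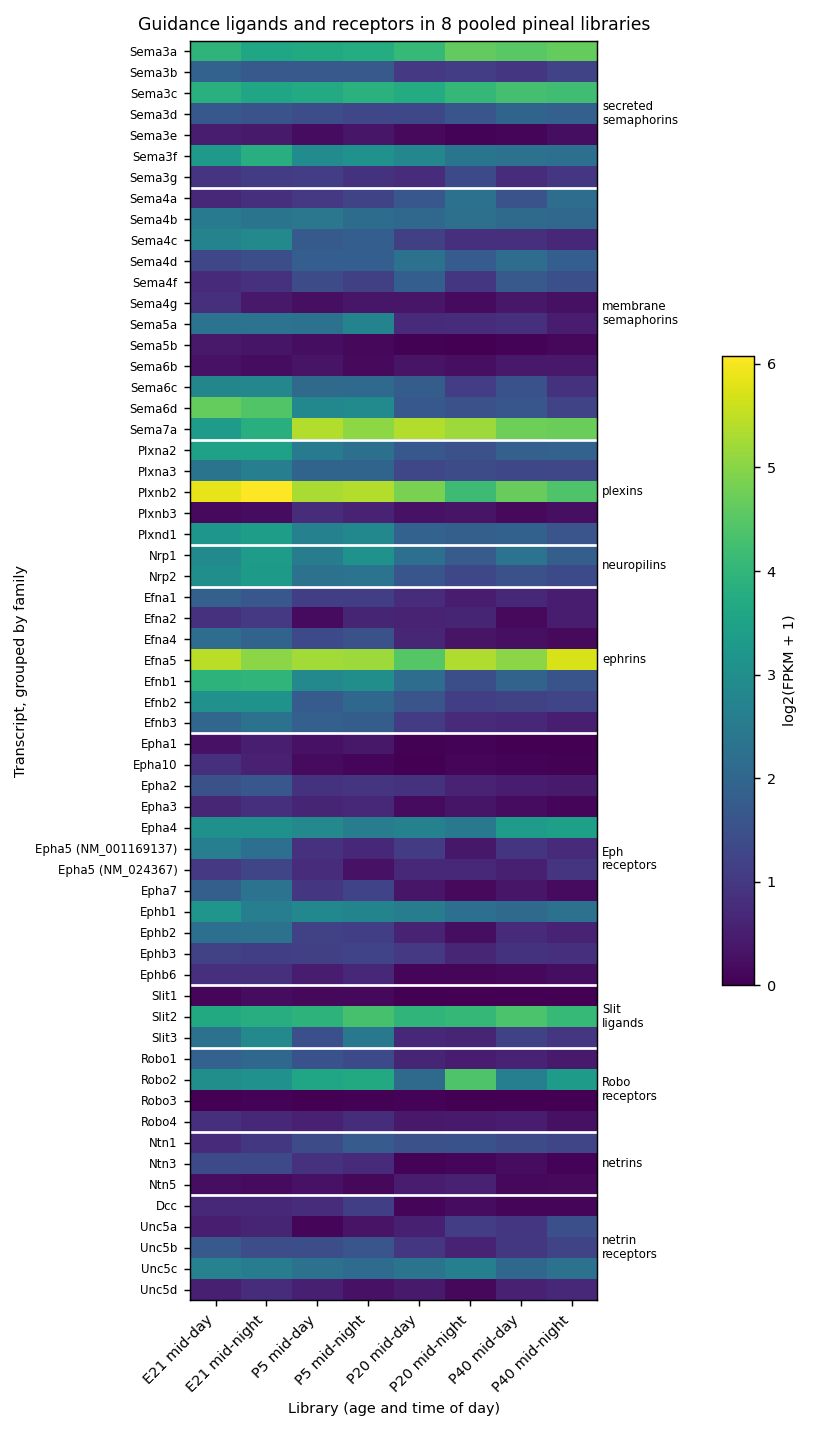
Levels of the 60 guidance transcripts (rows, grouped by family) in the 8 pooled libraries (columns), as log2(FPKM + 1) in colour. Most rows are brightest in the 2 E21 columns, while Sema7a, Sema3a, Slit2 and Efna5 are bright at later ages.

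By the mean of the day and night libraries, the age of highest level was E21 for 39 of the 60 members, P5 for 5, P20 for 7 and P40 for 9. A fall at each of the 3 steps between ages was seen for 20 members, and a rise at each step for 2. These counts, and those of the age of highest level, were not made over all transcripts. The median log2 change of all transcripts tested, from E21 to P40, was also a fall (-0.18). The tests used limma on log2(FPKM + 1) for the 9960 transcripts that reached 1 FPKM in 2 or more libraries, with p-values adjusted over them at a threshold of 0.05. This kept 44 members, 25 ligands and 19 receptors. The filter itself favours change: 9 of the 44 reached 1 FPKM only in E21 or P5 libraries and 1 only in P20 or P40 libraries. Over the 4 ages, 29 of the 44 passed the F test for age, where 36.4% of all transcripts tested did.

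Between E21 and P40, 25 of the 44 members were lower at P40 and 5 were higher. Of all transcripts tested, 26.8% were lower and 16.1% higher (42.9% called in all). The median log2 change was -1.08 over the 44 members and -0.18 over all 9960 transcripts. With each library centred on its own median, the median of all transcripts moved to 0.01 and the split among members to 23 lower and 10 higher, where 20.1% of all transcripts were lower and 21.8% higher under that scaling. With no filter on FPKM, 31 of the 60 members were lower and 4 higher, against 19.1% and 11% of 13972 transcripts. The values of the 2 E21 libraries lay above both P40 values for 30 of the 44 (46.1% of all tested) and below both for 11 (28.2%). In these bulk samples, fewer cells of a type and less RNA per cell cannot be told apart. Of the 30 calls, 23 passed under every alternative setting that gave a value, and the other 7 are given with their families below. The cause of the fall was not tested.

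**Figure D2:**
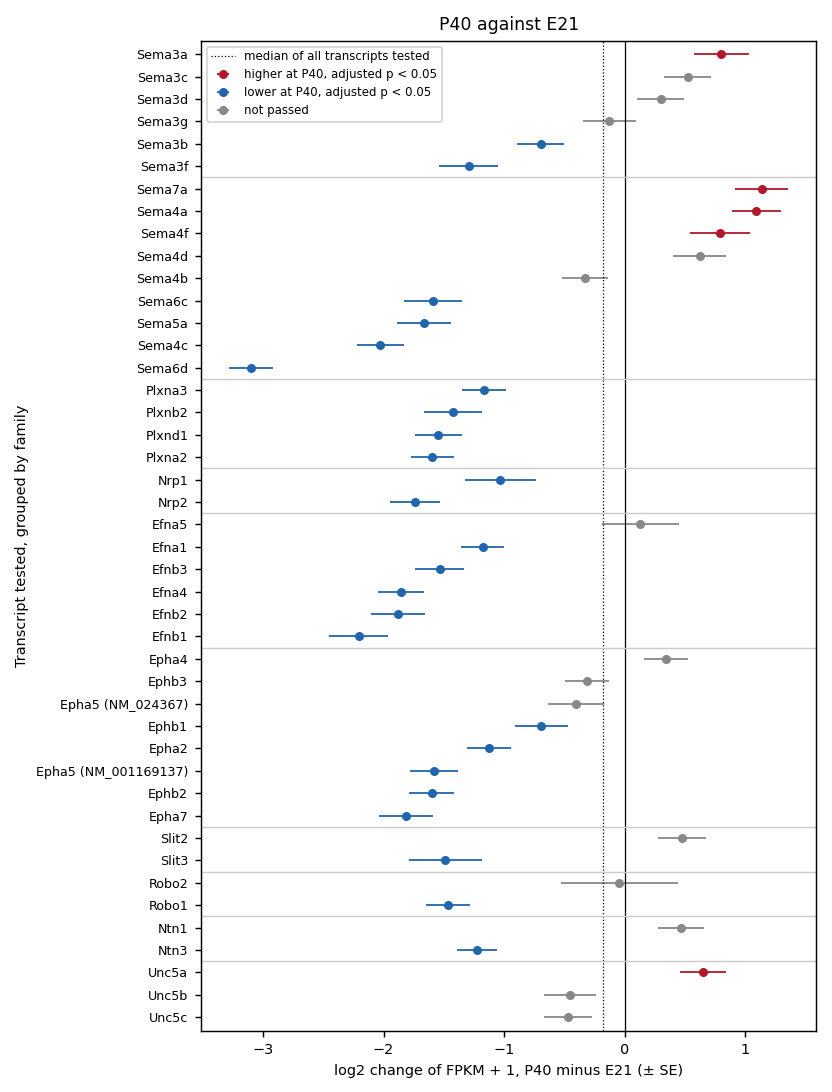
Change from E21 to P40 of the 44 guidance transcripts tested, as the fitted difference in log2(FPKM + 1) with its standard error (horizontal bars), grouped by family; colours give the call and the dotted line the median of all transcripts tested, -0.18. The 4 plexins, 2 neuropilins and 5 of 6 ephrins lie on the lower side, with Sema6d farthest at -3.10.

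Among the ligands, 1 of the 6 secreted semaphorins tested was higher at P40 and 2 were lower. Their summed FPKM was 43.1 and 40.8 in the E21 libraries and 49.1 and 50.1 in those of P40. Sema3a, a chemorepellent for sympathetic and sensory axons, was at 14.5 and 11.1 FPKM (E21), 12.01 and 12.6 (P5), 15.7 and 23.7 (P20) and 22.1 and 23.8 (P40), with mid-day before mid-night here and in every pair of values that follows. Both P40 values exceeded both E21 values, and the change was 0.80 ± 0.23 (log2 ± SE, adjusted p = 0.0241). This call was lost without the E21 mid-night library (0.50, adjusted p = 0.182), without P40 mid-day (0.81, 0.106) and without P40 mid-night (0.80, 0.116). Sema3c, which acts in axon and vascular patterning, was at 13.5 and 10.9 FPKM at E21 and 18.5 and 17.5 at P40. Its change of 0.53 missed the threshold (adjusted p = 0.0607) and passed under median centring (0.72, 0.0264).

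Sema3f, which signals through neuropilin-2, went the other way. It was at 8.84 and 13.1 FPKM (E21), 6.61 and 7.41 (P5), 6.08 and 4.12 (P20) and 3.93 and 3.68 (P40), with both P40 libraries under both E21 libraries (-1.29 on the log2 scale). Sema3b was lower as well, from 2.77 and 2.24 FPKM at E21 to 0.953 and 1.38 at P40 (-0.70, adjusted p = 0.0224). The Sema3b call did not survive median centring (adjusted p = 0.0718), quantile normalization (0.132), or leaving out the E21 mid-day (0.175), P40 mid-day (0.173) or P40 mid-night (0.0526) library. Sema3d and Sema3g did not pass (0.30 and -0.13), and Sema3e stayed under 1 FPKM.

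Sema6d, a membrane semaphorin that binds plexin A receptors, had the largest fall of any member tested on the log2(FPKM + 1) scale. The transcript (NM_001107768) maps to chr3:111890235-111948388 of rn4. It was at 23.8 and 20.7 FPKM (E21), 6.19 and 6.38 (P5), 2.21 and 1.83 (P20) and 2.06 and 1.38 (P40). Day and night lay close together at each age and no 2 of the first 3 ages overlapped. The mean at E21 was 12.9-fold that at P40, and the fitted change was -3.10 ± 0.18 (adjusted p = 3.89e-05). By the ratio of means other members fell further, among them Efna4 (20.9), Ntn3 (16.9) and Epha7 (15.6), whose P40 means lay under 1 FPKM. Sema6d made up 38.5% of the summed FPKM of the 12 membrane semaphorins at E21 and 4.13% at P40.

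Sema7a, a GPI-anchored semaphorin that promotes axon growth through integrins, was the most abundant of that group from P5 on. NM_001108153 maps to chr8:61717449-61739529 of rn4. It was at 9.23 and 13.3 FPKM (E21), 40.6 and 32.2 (P5), 40.8 and 35.7 (P20) and 25.8 and 25.4 (P40). All later values stood above both E21 values, with the highest at P5 and P20. Sema7a rose by P40 by 1.14 ± 0.22 on the log2 scale (adjusted p = 0.00515), and its share of the membrane semaphorin sum went from 19.5% at E21 to 68.9% at P20 and 61.4% at P40.

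Of the 9 membrane semaphorins tested, these 2 included, 4 were lower and 3 higher. Sema4c, a plexin B ligand, was at 5.55 and 6.22 FPKM at E21 and 0.761 and 0.614 at P40 (-2.03 ± 0.19, adjusted p = 2.24e-04). Sema5a, which carries thrombospondin repeats and can attract or repel axons, was at 3.999 and 4.002 FPKM at E21 and 0.793 and 0.393 at P40 (-1.66 ± 0.23, adjusted p = 0.00106), and Sema6c fell by 1.59. Sema4a, known from immune cells and the retinal pigment epithelium, was at 0.626 and 0.792 FPKM at E21 and 1.95 and 3.50 at P40 (1.09 ± 0.20, adjusted p = 0.00413). Sema4f was at 0.661 and 0.835 FPKM at E21 and 2.26 and 1.82 at P40 (0.80 ± 0.25, adjusted p = 0.0344). The Sema4f call was lost with no filter (0.0678), with time of day left out of the fit (0.0535), without both P5 libraries (0.0518) and without the E21 mid-day (0.247), P5 mid-day (0.0520), P5 mid-night (0.0526), P40 mid-day (0.108) or P40 mid-night (0.163) library. Sema4d did not pass (0.62, adjusted p = 0.0514), but did with pseudocount 0.1 (0.0482), under quantile normalization (0.87, 0.0078) and median centring (0.82, 0.0128), and without either P20 library (0.0476 and 0.0477). Sema4b did not pass (-0.33).

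The semaphorin receptors were lower at P40 throughout the 6 tested, 4 plexins and 2 neuropilins. The plexin sum was 78.9 and 91.5 FPKM at E21 and 31.3 and 26.7 at P40. Plxnb2, a receptor for class 4 semaphorins (NM_001108106, chr7:127457133-127483162 of rn4), was at 56.4 and 66.6 FPKM (E21), 38.7 and 40.3 (P5), 28.2 and 17.1 (P20) and 24.3 and 20.2 (P40). The E21, P5 and later libraries did not overlap, and the change was -1.43 ± 0.24 (adjusted p = 0.00279). Plxnb2 made up 72.2% of the sum over the 5 plexin rows at E21 and 76.9% at P40. Plxna1, Plxna4, Plxnb1 and Plxnc1 were not among the member rows. Plxna2, a receptor of class 6 semaphorins, was at 10.2 and 10.2 FPKM (E21), 4.61 and 3.74 (P5), 2.20 and 1.85 (P20) and 2.63 and 2.78 (P40). Plxnd1, known for its part in vessel patterning, and Plxna3 fell by 1.54 and 1.17 on the log2 scale.

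Nrp2, the binding partner of Sema3f and Sema3c, was at 7.16 and 8.97 FPKM (E21), 3.81 and 3.97 (P5), 2.11 and 1.50 (P20) and 1.85 and 1.56 (P40) (-1.74 ± 0.21, adjusted p = 5.97e-04). Nrp1, the binding partner of Sema3a and a co-receptor of vascular endothelial growth factor, was at 6.44 and 9.04 FPKM (E21), 4.94 and 7.54 (P5), 3.62 and 2.34 (P20) and 3.98 and 2.59 (P40). The change of Nrp1 was -1.03 ± 0.29 (adjusted p = 0.0245). It was lost with no filter (0.0584), without the E21 mid-night library (-0.74, 0.158) and without the P40 mid-night library (-0.71, 0.191).

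**Figure D3:**
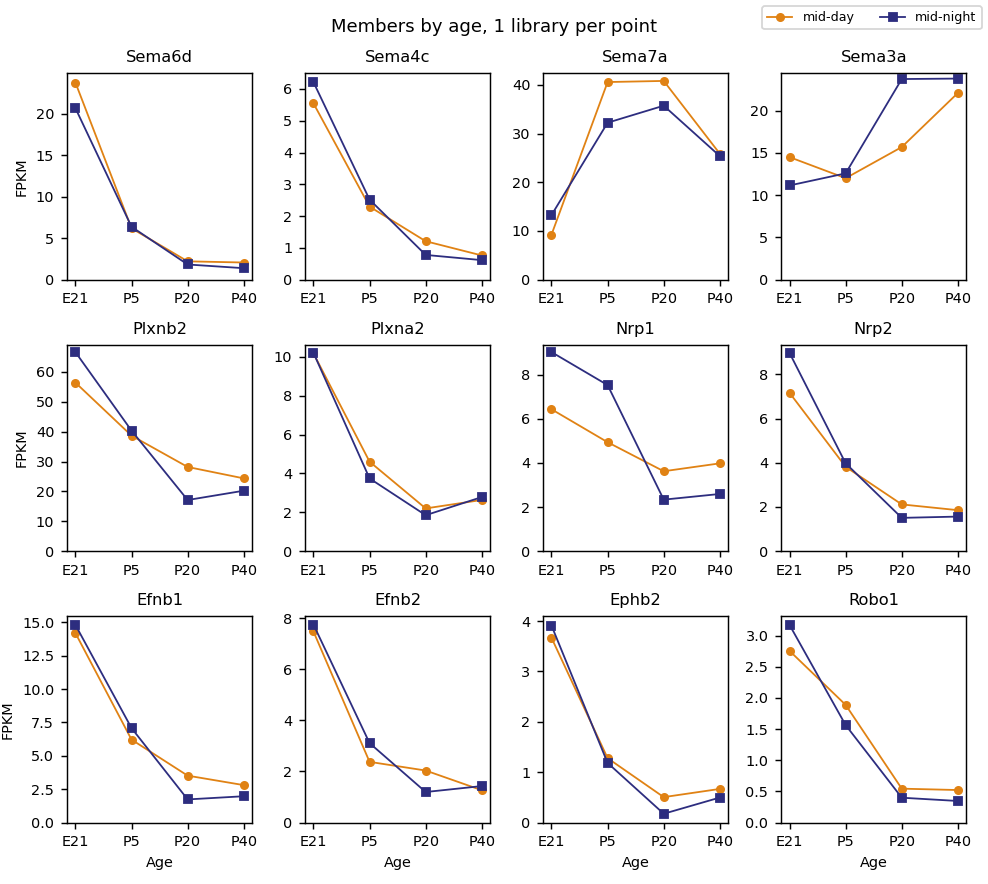
FPKM of 12 guidance transcripts (panels) against age, with mid-day and mid-night libraries as separate lines and 1 library per point; each vertical axis starts at 0. Sema7a and Sema3a end above their E21 levels, and the other 10 end below them.

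Of the 6 ephrins tested, 5 were lower at P40 and Efna5 was not. Efnb1, a transmembrane ephrin that forms tissue boundaries, was at 14.2 and 14.8 FPKM (E21), 6.22 and 7.08 (P5), 3.51 and 1.73 (P20) and 2.80 and 1.97 (P40) (-2.21 ± 0.24, adjusted p = 4.46e-04). Efnb2, the ligand of arteries, was at 7.48 and 7.76 FPKM at E21 and 1.27 and 1.43 at P40 (-1.88 ± 0.22, adjusted p = 5.99e-04). Efna4 went from 3.54 and 2.81 FPKM to 0.189 and 0.115 (-1.85 ± 0.19, adjusted p = 3.23e-04). Efnb3 and Efna1 fell by 1.53 and 1.18. Efna5, which repels axons in topographic maps (NM_053903, chr9:101227615-101532696 of rn4), was at 42.7 and 31.6 FPKM (E21), 36.5 and 35.3 (P5), 21.2 and 40.1 (P20) and 31.6 and 51.6 (P40). The E21 and P40 ranges overlapped, the change was 0.13 ± 0.32 (adjusted p = 0.756), and the share of Efna5 in the ephrin sum went from 53.7% at E21 to 88.9% at P40.

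Among 8 Eph transcripts tested, 5 were lower and none higher. Epha7 was at 2.61 and 4.001 FPKM at E21 and 0.284 and 0.139 at P40 (-1.81 ± 0.22, adjusted p = 6.94e-04). Ephb2, a receptor of the B ephrins, was at 3.67 and 3.91 FPKM at E21 and 0.668 and 0.497 at P40 (-1.60), and Epha2 fell by 1.13. Ephb1 was at 8.04 and 5.07 FPKM at E21 and 3.31 and 3.88 at P40 (-0.69, adjusted p = 0.0362). The Ephb1 call was lost without both P5 libraries (0.0542) or either of them (0.0538 and 0.0541 for P5 mid-day and mid-night), without E21 mid-day (-0.45, 0.253) and without P40 mid-day (-0.43, 0.274), and also with no filter (0.0655), quantile normalization (0.112) and median centring (0.0920). Epha4, which binds both A and B ephrins, was at 7.23 and 7.28 FPKM (E21), 6.26 and 5.01 (P5), 5.40 and 4.46 (P20) and 9.08 and 9.85 (P40). Its lowest mean was at P20, its change did not pass (0.34, adjusted p = 0.166; 0.53 and 0.0460 under median centring), and its share of the Eph receptor sum was 22.6% at E21 and 56.4% at P40.

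The 2 Epha5 rows start at the same position and overlap, so how the authors' software divided reads between them is uncertain. Epha5 NM_001169137 was at 5.10 and 3.68 FPKM (E21), 0.814 and 0.590 (P5), 1.13 and 0.305 (P20) and 0.923 and 0.657 (P40) (-1.58, called). Epha5 NM_024367 was at 1.01 and 1.40 FPKM (E21), 0.695 and 0.225 (P5), 0.612 and 0.611 (P20) and 0.446 and 0.914 (P40) (-0.40, not passed).

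Of the Slit ligands, which repel commissural and other axons, Slit2 did not pass the test. It was at 11.99 and 12.8 FPKM (E21), 14.3 and 18.9 (P5), 14.8 and 15.5 (P20) and 19.6 and 15.9 (P40) (0.48, adjusted p = 0.0848; 0.67 and 0.0217 under median centring). Slit3 was at 3.81 and 6.25 FPKM (E21), 1.82 and 4.54 (P5), 0.625 and 0.538 (P20) and 1.27 and 0.949 (P40). Its fall of -1.49 ± 0.30 (adjusted p = 0.00606) became -1.13 (0.0573) without the P40 mid-night library. Robo1, a Slit receptor, went from 2.76 and 3.17 FPKM to 0.522 and 0.346 (-1.47), while Robo2 did not differ between these ages beyond its spread (-0.04 ± 0.49). Robo2 was the larger part of the Robo sum, 66.2% at E21 and 90.8% at P40.

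Netrin transcripts were low. Ntn1, an attractant of commissural axons, was at 0.670 and 0.988 FPKM (E21), 1.67 and 2.36 (P5), 1.84 and 1.90 (P20) and 1.62 and 1.43 (P40) (0.47, adjusted p = 0.0827; 0.66 and 0.0177 under median centring). Ntn3 fell from 1.56 and 1.53 FPKM to 0.143 and 0.0403. Dcc, the attractive netrin receptor, was at 0.610 and 0.634 FPKM at E21, 0.716 and 1.18 at P5 and 0.0547 and 0.0701 at P40, and it did not enter the test. Unc5a, a repulsive netrin receptor, was at 0.431 and 0.549 FPKM (E21), 0.0624 and 0.248 (P5), 0.447 and 1.15 (P20) and 0.944 and 1.80 (P40) (0.65 ± 0.19, adjusted p = 0.0277). The Unc5a call was lost with time of day left out (0.0743) and without the E21 mid-day (0.0538), E21 mid-night (0.219) or P40 mid-day (0.0757) library. Unc5c, at 3.09 to 5.52 FPKM in all libraries, and Unc5b did not pass.

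Summed over all members, receptor FPKM dropped further than ligand FPKM, and a few abundant members weigh heavily in each sum. Mean FPKM at E21 and P40 was 37.2 and 41.6 for Efna5, 11.2 and 25.6 for Sema7a, and 12.8 and 23.0 for Sema3a. For Slit2 it was 12.4 and 17.8, and for Sema3c 12.2 and 18.0. Each of these ligands had a higher mean at P40 than at E21, and the ligand sum without them was not computed. The sums therefore do not show that the other ligands fell less than the receptors. The ligand sum was 193 and 185 FPKM (E21), 172 and 176 (P5), 145 and 163 (P20) and 152 and 165 (P40). The receptor sum was 146 and 160.3 FPKM (E21), 101 and 104 (P5), 65.6 and 66.2 (P20) and 65.0 and 65.7 (P40). The ratio of ligand to receptor FPKM was 1.33 and 1.15 at E21 and 2.34 and 2.51 at P40, with no overlap between E21, P5 and the later ages. Without Plxnb2 it was 2.17 and 1.98 at E21 and 3.74 and 3.63 at P40. By calls, 13 of 25 ligands were lower and 4 higher, and 12 of 19 receptors were lower and 1 higher. Of all transcripts tested, 26.8% were lower and 16.1% higher, so the share of ligands called higher was near that of all transcripts. The difference between the classes was not tested.

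**Figure D4:**
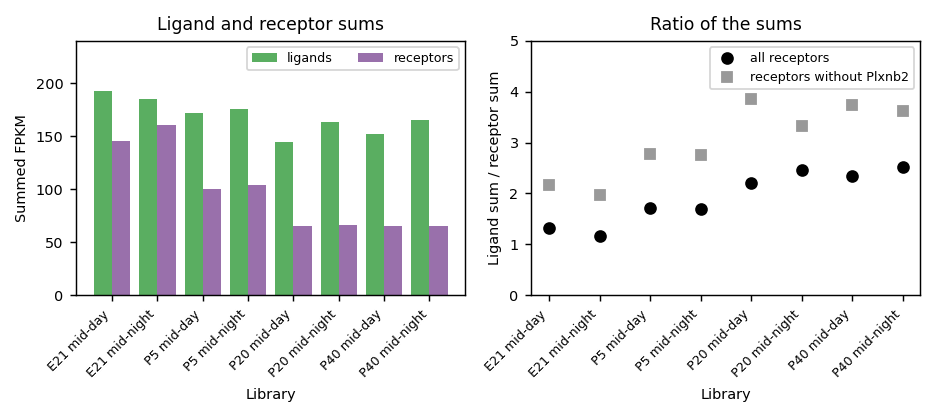
Left, summed FPKM of the 32 ligand and 28 receptor transcripts in each library (bars). Right, the ratio of the sums with all receptors (circles) and without Plxnb2 (squares). The receptor sum is 146 and 160.3 at E21 and 65.0 and 65.7 at P40.

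Transcripts of other marker lists changed over the same ages, in both directions. The name of a list does not show which cells held its transcripts. Beside the counts below, 26.8% of all transcripts tested were lower at P40 than at E21 and 16.1% higher. Summed FPKM of 8 endothelial markers was 52.0 and 68.8 at E21 and 22.6 and 18.6 at P40, with 6 of 7 tested lower and Cldn5 listed at 0 in every library. The sum of 9 fibroblast and matrix markers was 890.3 and 1258 at E21 and 179.6 and 147 at P40 (7 of 9 lower, 1 higher). The sum of 8 immature neuron markers was 178 and 146 at E21 and 15.0 and 18.3 at P40 (8 of 8 lower). For 14 cell cycle genes it was 217 and 162 at E21 and 20.3 and 28.7 at P40 (11 of 12 tested lower), and 3 of 5 smooth muscle and pericyte markers tested were lower. The sum of 8 brain neuron markers was 379 and 367 at E21 and 968 and 1062 at P40 (3 of 4 tested higher); Slc17a7 was at 24.4 and 34.5 FPKM at E21 and 276 and 273 at P40, while Gad1, Gad2 and Camk2a stayed under 1 FPKM in every library. For 8 microglia and macrophage markers the sum was 25.4 and 28.6 at E21 and 39.4 and 54.0 at P40 (3 of 7 tested higher, 1 lower), and of 7 astrocyte markers 4 were higher and 3 lower. Myelin and Schwann cell markers had sums of 22.3 and 24.8 at E21 and 10.95 and 22.2 at P40 (1 of 4 tested lower). The part of these markers in the changes of guidance transcripts was not tested.

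Early change, from E21 to P5, was called for 12 members, 10 lower and 2 higher, where 6.84% of all transcripts were lower and 8.29% higher (15.1% called). Sema7a rose most, by 1.62 ± 0.22 on the log2 scale (adjusted p = 0.00393). Sema6d fell by 1.67 (SE 0.18, adjusted p = 0.00176) and Epha5 NM_001169137 fell by 1.65 (SE 0.20, adjusted p = 0.00244). These 3 passed under every alternative that gave a value. Efnb2 (-1.21, adjusted p = 0.0114) and Plxna2 (-1.12, adjusted p = 0.00708) were next, but Efnb2 was lost without either E21 library (0.0569 and 0.0563) or the P5 library of mid-day (0.103), and Plxna2 without P5 mid-night (0.0567). Ntn1 was higher by 0.72 ± 0.19 (adjusted p = 0.0431), and the call was lost under 10 of 15 alternatives. The count of 12 became 6 on leaving out E21 mid-day, 4 for E21 mid-night, 4 for P5 mid-day and 5 for P5 mid-night, with 5.85%, 8.87%, 4.41% and 6.36% of all transcripts called. Choroid plexus markers rose at this step (8 of 9), and their part was not tested.

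From P5 to P20, 10 members were lower and none higher, where 5.99% of all transcripts were lower and 1.02% higher (7.02% called). Sema5a had the largest change, from 3.88 and 5.70 FPKM at P5 to 0.669 and 0.718 at P20 (-1.76 ± 0.23, adjusted p = 0.00696). Slit3 (-1.32 ± 0.30, adjusted p = 0.0403), Sema6d (-1.28, adjusted p = 0.00946) and Efnb1 (-1.12, adjusted p = 0.0345) were next. The calls at this step were fragile. Each of the 10 was lost under at least 1 alternative, no call was left without P5 mid-night, P20 mid-day or P20 mid-night (0.355%, 1.93% and 0.534% of all transcripts called), and 3 were left without P5 mid-day, P40 mid-day or P40 mid-night (3.64%, 5.37% and 5.42%). Under quantile normalization or median centring, 2 were lower and 1 higher, Sema4a (1.16 and 1.04), where 3.14% and 3.26% of all transcripts were lower and 2.2% and 1.74% higher. Slit3 and Sema5a were higher at night than by day at P5 (2.49- and 1.47-fold), in the library with the high choroid plexus sum, and 8 of 9 choroid plexus markers fell at this step; the part of these markers in either change was not tested.

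The step at which falling members passed was not the same for each, and most calls at single steps were lost under an alternative. Of the 25 lower at P40, 7 were called at the step from E21 to P5 only, 7 at the step from P5 to P20 only, 3 at both (Efnb1, Sema6d and Plxna2) and 8 at neither. The median member among them had covered 44.6% of its change by P5. Epha5 NM_001169137 had covered 104.5%, Plxna2 70.2%, Ephb2 68.9% and Efnb2 64.4%, whereas Efnb3 had covered 20.4% and Sema5a -11.7%, its P5 mean lying above its E21 mean. Sema7a had covered 142% of its rise. Whether these timings differ from each other was not tested. From P20 to P40 no member passed by limma (3 of 44 at an unadjusted p under 0.05, 6.82%), nor did any of the 9960 transcripts (0%, with 669, or 6.72%, at an unadjusted p under 0.05).

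Mid-night was compared with mid-day at P20 and P40 together. Robo2 was the 1 member called, higher at night by 1.52 ± 0.33 (adjusted p = 0.0434), where 2.8% of all transcripts were higher and 1.59% lower (4.39% called). With Robo2, 11 of 44 members (25%) had an unadjusted p under 0.05, as had 20.1% of all transcripts. Robo2, the Slit receptor (NM_032106, chr11:12662391-13174850 of rn4), was at 7.05 and 7.39 FPKM (E21), 10.9 and 12.01 (P5), 3.31 and 20.4 (P20) and 5.20 and 9.28 (P40). Day and night lay close at E21 and P5, and night stood above day at P20 (6.15-fold) and P40 (1.78-fold). The call rests on P20. Without either P20 library the effect was 0.73, which is that of the P40 pair alone. Without either P40 library it was 2.31, which is that of the P20 pair alone. Each of these compares 1 library with 1, so no p-value is given for them. The call was also lost on leaving out either E21 library or either P5 library, with the effect still at 1.52.

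The next lowest p-values did not pass. Efna5 was at 21.2 FPKM by day and 40.1 by night at P20, and at 31.6 and 51.6 at P40 (0.79 ± 0.19, adjusted p = 0.0610; 0.90 and 0.0301 under median centring). Sema4a was at 2.15 and 3.83 FPKM at P20 and 1.95 and 3.50 at P40 (0.61 ± 0.17, adjusted p = 0.0875), and Unc5a had a difference of 0.55 ± 0.17 (adjusted p = 0.124). Sema6c was at 2.48 FPKM by day and 1.15 by night at P20 and at 1.90 and 0.843 at P40 (-0.67 ± 0.16, adjusted p = 0.0642), and Efnb1 had a difference of -0.54 ± 0.17 (adjusted p = 0.135). The direction was the same at both ages for these 5 members and for Robo2. Choosing members by a p-value over both ages favours such agreement, so it adds no support. Farp2, a member of the signalling list below that links plexins to small GTPases, was at 9.23 and 44.9 FPKM by day and night at P20 and at 10.6 and 28.9 at P40 (1.77 ± 0.24, adjusted p = 0.00762). It was the 1 gene called of 33 tested in that list, where 2.8% of all transcripts were higher at night.

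**Figure D5:**
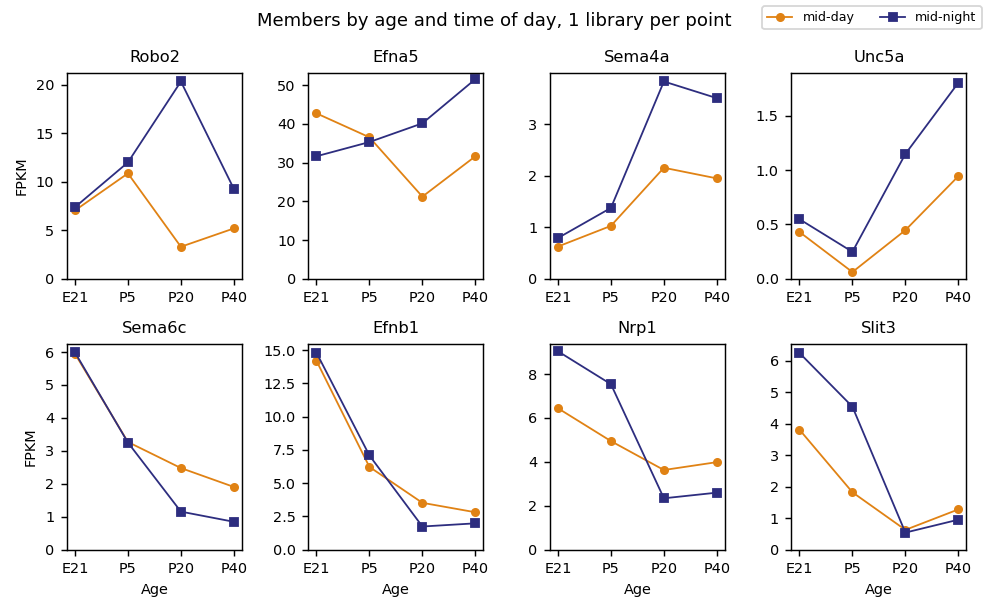
FPKM of 8 guidance transcripts (panels) against age in mid-day and mid-night libraries, 1 library per point, with each vertical axis starting at 0. Robo2 has its widest gap at P20, 3.31 by day and 20.4 by night, and the lines for Efna5 cross between E21 and P20.

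At E21 and P5 together no member passed for night against day (limma), and 0.0301% of all transcripts did, 0.0201% higher and 0.01% lower at night. An unadjusted p under 0.05 was seen for 2 of 44 members (4.55%) and 566 of all 9960 transcripts (5.68%). The change in the night effect between the younger and older pair of ages was called for no member (limma) and for 0.753% of all transcripts, 0.612% higher and 0.141% lower. An unadjusted p under 0.05 was seen for 6 of 44 members (13.6%) and 13% of all transcripts. Its lowest p-values belonged to Nrp1 (-0.95 ± 0.23, adjusted p = 0.133) and Efna5 (1.02 ± 0.27, adjusted p = 0.171). Nrp1 was higher by night at E21 and P5 and lower by night at P20 and P40. Because Nrp1 was chosen by its p-value over these same libraries, that pattern adds no support. Without P40 mid-day or P40 mid-night, the difference for Robo2 was 2.21. The night effect of the older pair was then that of P20 alone, 1 library against 1.

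At a single age there is no replicate, and differences of 2-fold on the log2(FPKM + 1) scale were counted. Robo2 at P20 was the only member past it, where 2.44% of all transcripts were that much higher and 2.72% that much lower at night. At E21 (0.783% higher, 1.24% lower), P5 (1.55%, 0.301%) and P40 (3.04%, 1.34%) no member was. The members named next had the 3 widest differences each way on that scale among members that reached 2 FPKM by day or by night, and the values given are night-to-day ratios of FPKM, by which other members can rank higher. At E21 they were Slit3 (1.64), Sema3f (1.48) and Sema7a (1.44) above 1, and Ephb1 (0.631), Epha5 NM_001169137 (0.722) and Efna5 (0.741) below 1. At P5 they were Slit3 (2.49), Nrp1 (1.52) and Sema5a (1.47), and Sema7a (0.794), Sema4b (0.795) and Epha4 (0.801). At P20 they were Robo2, Efna5 (1.89) and Sema4a (1.78), and the day-to-night ratio was 2.68 for Sema4f, 2.15 for Sema6c and 2.03 for Efnb1. At P40 the ratios were 1.80 for Sema4a, 1.78 for Robo2 and 1.63 for Efna5, and 0.651 for Nrp1, 0.669 for Sema6d and 0.703 for Efnb1.

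Other genes of the pathway were followed as lists. For P40 against E21, 26.8% of all transcripts tested were lower and 16.1% higher, with a median of -0.18. Of 38 genes that carry guidance signals inside the cell, 37 were found and 33 tested, with 15 lower and 4 higher at P40 than at E21 and a median change of -0.43. Of the collapsin response mediators, which bind tubulin downstream of semaphorins, Dpysl2, Dpysl3, Dpysl4 and Dpysl5 were lower and Crmp1 did not pass (0.34, adjusted p = 0.248). Dpysl3 was at 38.1 and 38.0 FPKM at E21 and 9.99 and 10.95 at P40 (-1.77), and Dpysl5 and Dpysl4 fell by 2.32 and 2.48. The kinase Pak3 fell by 2.34, and the 4 higher genes were Farp2 (1.92 ± 0.45), Pak2 (0.82), Mical2 (0.75) and Vav2 (0.59). Rhoa was listed at 0 in every library. Of 28 other guidance ligands, receptors and co-receptors, 21 were found and 18 tested, with 9 lower and 2 higher and a median of -0.66. L1cam, an adhesion molecule of growing axons, was at 9.21 and 7.22 FPKM at E21 and 0.501 and 0.673 at P40 (-2.53), and the chemokine Cxcl12 fell by 1.92. Cntn4 (0.69) and Nptn (0.68) were the higher ones. From E21 to P5 the lists had 6 and 4 lower genes and none higher, and from P5 to P20 they had 5 and 6 lower and none higher. Of all transcripts tested, 6.84% were lower and 8.29% higher at the first step, and 5.99% and 1.02% at the second.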

How the data were processed

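Values were FPKM made by the authors and deposited as 1 value per RefSeq transcript, with TopHat 1.3.1, Cufflinks 1.2.0 and build rn4 per the submitters' processing notes. Scaling between libraries beyond FPKM is not given in the sources used here. The 8 per-sample value sets were identical to those of the series, and 0 columns belonged to no sample. Coordinates are those of the deposited table with starts counted from 1 (the table's starts count from 0, since 99.7% of 1192 olfactory receptor spans up to 1100 bp are multiples of 3).

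The scale was log2(FPKM + 1), on which changes near or under 1 FPKM are understated. Transcripts with at least 1 FPKM in 2 libraries (9960) were fitted in R 4.3.3 by limma 3.58.1 with a trended eBayes prior. Tests were two-sided, with Benjamini-Hochberg adjustment over all tested and a threshold of 0.05. The first model held terms for age and time of day (3 residual degrees of freedom, prior 4.816). The second had age and separate night effects for E21 with P5 and for P20 with P40 (2 residual degrees of freedom). The fit was run on simulated data with independent noise, for P40 against E21 only. That run covers neither the night tests nor variation among pools. Single-age differences had no test. Relative depth used the 10th percentile of FPKM multiplied by span among the olfactory transcripts above 0. Counts were not used here, so no counting intervals are given.

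Promoters came from a RefSeq table of GRCr8, a build other than that of the values. Alternatives were other pseudocounts, filters, scalings, a robust fit, fits without time of day or P5, and each library left out. Members, lists and tests were chosen with earlier results of these data known, and so support nothing independently. Named are the 12 members of highest mean, the 8 largest changes each way for P40 against E21, the 4 each way for successive ages, the 6 lowest p for night, the 3 widest single-age differences each way with 2 FPKM or more, and genes with several rows. Members with changed or lost calls, family sums and other family members were added after their values were seen.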

Additional observations from a re-analysis of the deposited data

How the results depend on the processing

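No paired analysis was possible because there is a single pooled library per age and time, with no replicates to number; the time-of-day term compared ages within mid-day and within mid-night. Beside each count of members called stands the share of all transcripts called under that setting. With the filter at 5 FPKM, which leaves 20 members tested, the counts were 14 for age (35.6%), 14 for P40 against E21 (43.5%), 7 for P5 against E21 (16.2%) and 3 for P20 against P5 (5.71%). For P20 against P5, 2 passed with pseudocount 5 (3.99%), 5 with no filter (2.67%), 3 with quantile normalization (5.34%) and 3 with median centring (5%). For night at P20 and P40, 2 passed with pseudocount 0.1 (4.76%) and 2 with median centring (5.13%). There 0 passed with pseudocount 5 (3.5%), no filter (0.752%), the robust fit (5.25%), without both P5 libraries (3.05%), or with 1 night effect over the 4 ages (0%). With pseudocount 0.1, members 2-fold apart at a single age were 3 at P5 (4.09%), 7 at P20 (11%) and 1 at P40 (8.52%), and with median centring 2 at P20 (4.91%). The cause of these moves was not tested. Leaving out each library in turn, counts ran from 22 to 28 for age (23.4% to 33.8%), 24 to 31 for P40 against E21 (23.5% to 42.8%), 4 to 10 for P5 against E21 (4.41% to 14.5%), 0 to 8 for P20 against P5 (0.355% to 7.72%), 0 to 1 for night at P20 and P40 (1.68% to 3.72%), and 0 to 1 for the change in the night effect (0.0718% to 0.696%). Without a P20 or P40 library, the night effect of P20 and P40 rests on the other age, with 1 library for each time. Among the members, the only transcripts checked, none called for a single comparison changed sign there under the alternatives run. The median of all transcripts did, for P40 against E21 (above) and for P20 against P5, where -0.18 became 0.03 under both quantile normalization and median centring. Depth limits the members under 1 FPKM most, and its rough estimate was lowest in the P20 mid-day library.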
